A study of Gallus gallus with 12 samples.

Results

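The miR-15 and miR-16 hairpins of the chicken were followed in sorted cells of early embryos by small RNA sequencing. They were chosen by name: every hairpin row of the chicken-aligned table whose family number is 15 or 16, which gave 6 of 850 hairpin names (gga-mir-15a, gga-mir-15b, gga-mir-15c, gga-mir-16-1, gga-mir-16-2 and gga-mir-16c). The 4 human rows with the same numbers, among 1913 hairpin names of the human-aligned table, served as a check.

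Electroporation gave the embryos a vector expressing GFP together with constructs that either delete the chick miR-302 or overexpress the human one, and they were grown to HH4-5, the gastrula stages of the chick. Cells were then sorted by GFP into 4 groups of 3 libraries each. Knockdown GFP+ cells carried the deletion constructs and knockdown GFP- cells were their GFP-negative counterparts; overexpression GFP+ cells carried the human miR-302 construct and overexpression GFP- cells were their GFP-negative counterparts. The labels call the first arm a knockdown, its titles carry KO and its protocol names a deletion. The labels name no group given an empty vector, so both the miR-302 construct and the electroporated, GFP-expressing state separate GFP+ from GFP- cells in every comparison and cannot be told apart. The labels do not say that the libraries of a group came from separate embryos or pools, and the spread that p-values rest on is that between libraries, part of which may be technical. In sorted bulk cells, fewer cells of a type and less RNA per cell cannot be told apart.

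Depth differed between the groups. Reads on hairpins numbered 49276 to 82211 in knockdown GFP+ libraries and 277633 to 435716 in knockdown GFP- libraries, against 1292 to 3856 in overexpression GFP+ libraries and 7546 to 277637 in overexpression GFP- libraries. The 3 overexpression GFP+ libraries stood apart: 1 read there was worth 6.68, 24.4 and 15.9 normalized reads, the unit used below for levels. The 4 chick miR-302 hairpins were the target of the deletion. Their summed level was 11870 to 17846 normalized reads in knockdown GFP+ libraries and 17783 to 22211 in knockdown GFP- libraries. By limma 0 of the 4 passed in that arm, where 10.6% of all tested hairpins did. In the human-aligned table the miR-302 and miR-367 rows summed to 2562 to 4987 in overexpression GFP+ libraries and 2499 to 8841 in overexpression GFP- libraries, which overlapped. In the knockdown arm, which had no human construct, the same rows summed to 5041 to 7973 in GFP+ and 7274 to 9776 in GFP- libraries. These rows thus also collect chick reads, and the overlap does not show whether the human miR-302 was overexpressed. Of the 5 tested human-aligned miR-302 rows 0 passed by limma in the overexpression arm, where 18.4% of the 114 tested hairpins did. At an unadjusted p under 0.05 was 1 of the 5, beside 36 of the 114. The median log2 fold of the 5 was 1.08, beside -0.47 over all 114 tested hairpins of that table.

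MicroRNAs of this family share a seed, the short stretch at the 5′ end of the mature strand that pairs with target transcripts, and their genes lie in pairs of one miR-15 and one miR-16 hairpin within a single primary transcript. In mammals they are known for restraining the cell cycle and the survival factor BCL2, and in Xenopus miR-15 and miR-16 limit a type II Nodal receptor in the early gastrula. In the chicken assembly GRCg7b the 6 genes form such pairs on 3 chromosomes. MIR15A and MIR16-1 are neighbours on chromosome 1 inside the uncharacterized gene LOC124417627, and MIR15B and MIR16-2 are neighbours on chromosome 9 within SMC4, a gene for a condensin subunit. MIR15C and MIR16C are neighbours on chromosome 4 and overlap the uncharacterized gene LOC101749419.

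The family was present at a moderate level, and nearly all of it was miR-16. Ranked by the mean normalized reads of the 12 libraries among all 850 hairpins, gga-mir-16-2 was 50th with 87.5 and gga-mir-16-1 was 52nd with 84.6. Next came gga-mir-16c, 68th with 51.1, and gga-mir-15a, 119th with 13.1. The last of the 6 were gga-mir-15b, 151st with 5.70, and gga-mir-15c, 196th with 2.36. These are reads per hairpin that are not divided by length. The first 2 did not differ beyond their spread over libraries. The 3 miR-16 hairpins had a read in all 12 libraries, gga-mir-15a in 11, and gga-mir-15b and gga-mir-15c in 8. Within each gene pair the miR-15 hairpin held the smaller share of reads pooled over the 12 libraries: gga-mir-15a 11.3% of its pair with gga-mir-16-1 (95% Wilson interval 10.3% to 12.3%), gga-mir-15b 6.90% of its pair with gga-mir-16-2 (6.09% to 7.81%), and gga-mir-15c 4.55% of its pair with gga-mir-16c (3.77% to 5.49%). These intervals, like all intervals on reads here, cover counting error only. The shares in the pairs of gga-mir-16-1 and gga-mir-16-2 also rest on how shared miR-16 reads were split between these loci, which is not stated. A filter at a mean of 10 normalized reads kept 132 hairpins for testing, among them 4 members; gga-mir-15b and gga-mir-15c fell below it.

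**Figure D1:**
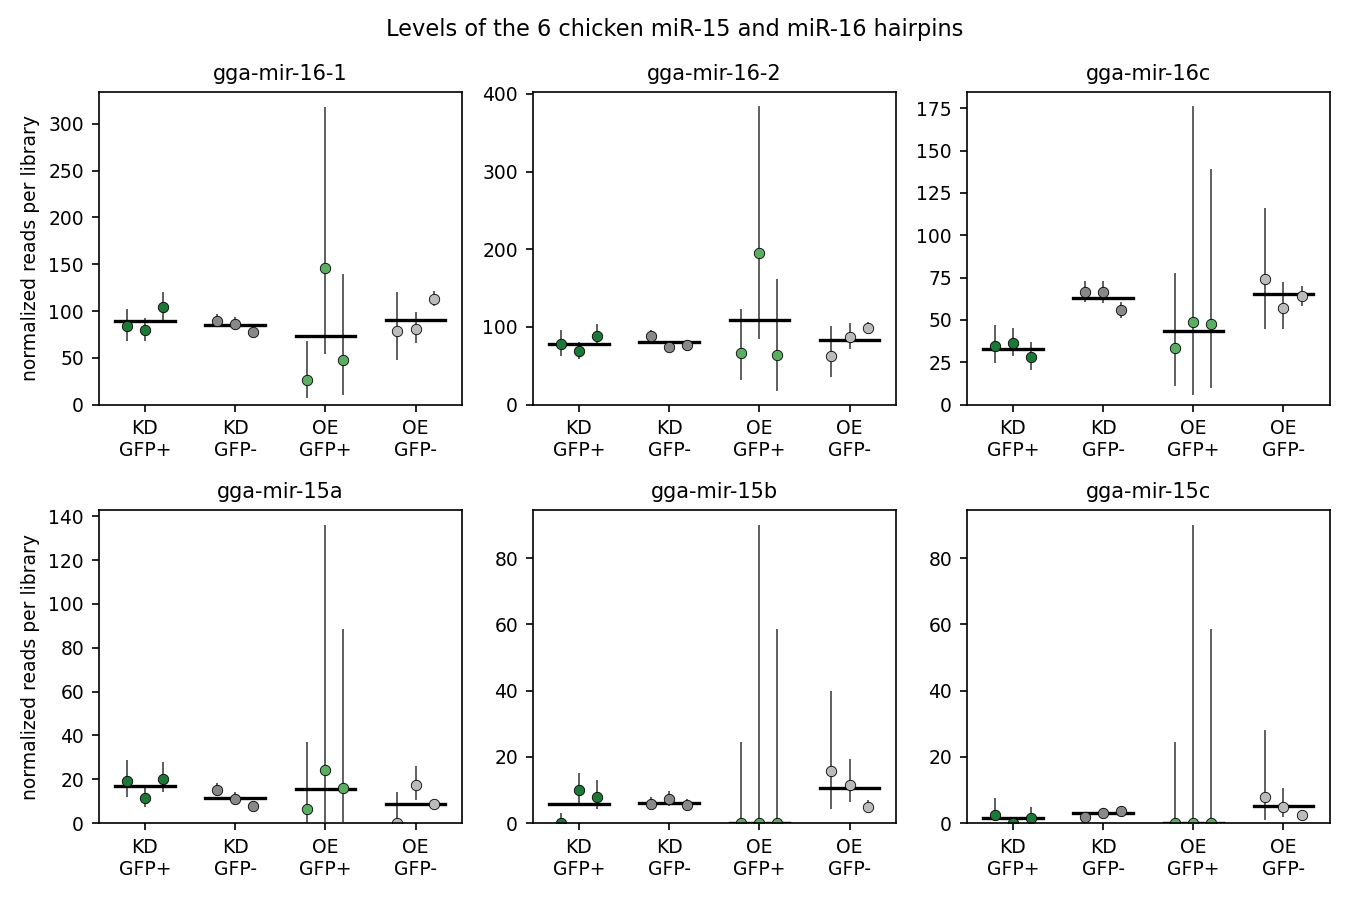
Each panel shows 1 hairpin with a point per library (normalized reads, y axis) in the groups knockdown (KD) GFP+, knockdown GFP-, overexpression (OE) GFP+ and overexpression GFP-; bars through the points are exact 95% Poisson intervals of the reads and horizontal lines are group means. For gga-mir-16c the 3 knockdown GFP+ points lie between 27.9 and 36.1 and the 3 knockdown GFP- points between 55.7 and 66.7, while the overexpression GFP+ intervals are wide in every panel.

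The 2 most abundant members, gga-mir-16-1 and gga-mir-16-2, stood at like levels on both sides of the sort in the knockdown arm. Their mature miR-16 strand is the same in vertebrate annotations, so a read can belong to either locus, and the rule that assigned it is not stated in the labels or files. In normalized reads, gga-mir-16-1 had 84.0, 79.9 and 104 in knockdown GFP+ libraries, against 89.8, 86.3 and 77.9 in knockdown GFP- libraries. The groups overlapped, with a log2 fold of 0.07 (SE 0.52). For gga-mir-16-2 the levels were 78.0, 69.0 and 88.7 normalized reads in knockdown GFP+ libraries, against 88.8, 74.7 and 77.3 in knockdown GFP- libraries, a log2 fold of -0.03 (SE 0.44). The 95% interval of the log2 fold ran from -1.08 to 1.22 for gga-mir-16-1 and from -1.0002 to 0.93 for gga-mir-16-2, so folds within these ranges were not excluded by this fit. In limma on the knockdown libraries alone, without the shallow overexpression libraries, the SE was 0.24 for each hairpin. Of the reads on these hairpins, gga-mir-16-1 held 53.4% in GFP+ cells and 51.1% in GFP- cells of the knockdown arm, pooled over 3 libraries each.

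Of the 4 tested members gga-mir-16c had the log2 fold farthest from 0 in the knockdown arm. By that fitted fold its level in GFP+ cells was 0.529 times that in GFP- cells. In knockdown GFP+ libraries it had 34.7, 36.1 and 27.9 normalized reads, from 40, 76 and 50 reads, against 66.7, 66.3 and 55.7 normalized reads in knockdown GFP- libraries, from 469, 421 and 558 reads. Every GFP+ library lay below every GFP- library, with means of 32.9 ± 4.40 and 62.9 ± 6.21 (SD, n = 3 each). That order held for 26.5% of the 132 tested hairpins in this arm. In limma's fit over all 12 libraries the log2 fold was -0.92 (SE 0.37, 95% interval -1.72 to -0.11), with a Benjamini-Hochberg adjusted p = 0.172 over 132 hairpins, so it did not pass the threshold of 0.05. The 95% intervals of gga-mir-16-1 and gga-mir-16-2 given above include this fold. That does not compare the hairpins, and a difference in fold between them was not tested. Over all 132 hairpins the median log2 fold in this contrast was -0.17, or -0.02 after TMM scaling, where gga-mir-16c stood at -0.76 (adjusted p = 0.317 in limma).

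By limma 0 of the 4 tested members passed in the knockdown arm, where 10.6% of all tested hairpins did. At an unadjusted p under 0.05 by limma were 30 of all 132 tested hairpins, and 1 of the members, gga-mir-16c. With the replicate number as a block its SE rose to 0.50, its unadjusted p to 0.0987 and its adjusted p to 0.354 by limma. By edgeR 0 passed, where it called 22.7% of the tested hairpins. By DESeq2 1 passed, again gga-mir-16c, with a log2 fold of -0.94 and an adjusted p of 0.00399; DESeq2 called 27.3% of the tested hairpins in this contrast, and 9.85% lower. Over 19 alternatives the log2 fold of gga-mir-16c stayed between -1.002 and -0.76, and its adjusted p ran from 0.00399 to 0.601. It passed in 3 of them: DESeq2, limma on the knockdown libraries alone (adjusted p = 0.0362) and limma with array weights (adjusted p = 0.00804). Each of the 2 limma settings called 29.5% of the tested hairpins, against 10.6% in the fit reported. With edgeR it was 0.0579. The direction did not change with any alternative, and the call changed with the tool, the libraries fitted and the weights.

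**Figure D2:**
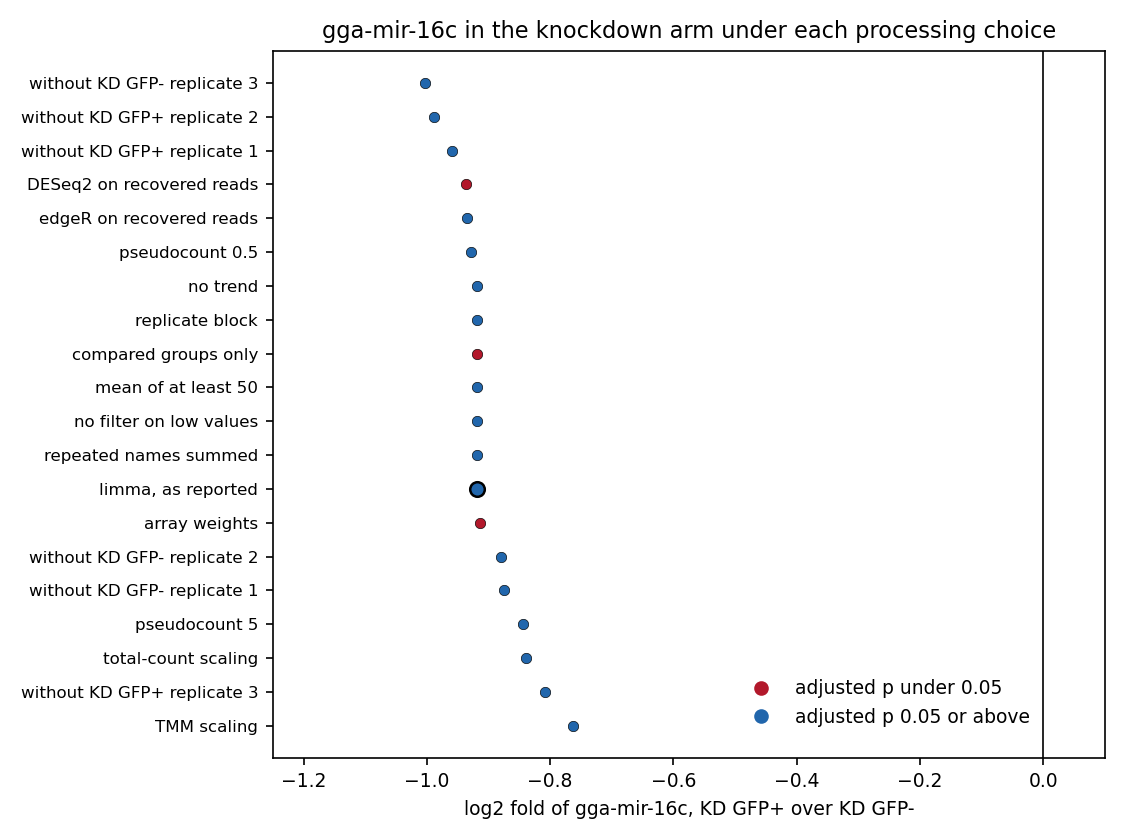
Log2 fold of gga-mir-16c, knockdown GFP+ over knockdown GFP- (x axis), under each processing choice (y axis); the outlined point is the reported fit, red points have an adjusted p under 0.05 and blue points do not. All points lie between -1.002 and -0.76, and 3 are red.

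The share of gga-mir-16c among the reads of the 3 miR-16 hairpins does not depend on the normalization between libraries. It was 17.6%, 19.5% and 12.6% in knockdown GFP+ libraries, of 227, 389 and 396 miR-16 reads, against 27.2%, 29.2% and 26.4% in knockdown GFP- libraries, of 1726, 1443 and 2112 miR-16 reads. The highest GFP+ interval reached 23.8% and the lowest GFP- interval began at 24.6%, so no 95% Wilson interval of one group touched one of the other. The mean difference was -11.0 percentage points, from 16.6% ± 3.57 and 27.6% ± 1.42 (SD, n = 3 each). A two-sided exact permutation test gave p = 0.1, the smallest that 3 against 3 libraries allow. Permuted within the same-numbered pairs, the exact p was 0.25, again the smallest possible; the share was chosen for this test after the levels were seen.

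**Figure D3:**
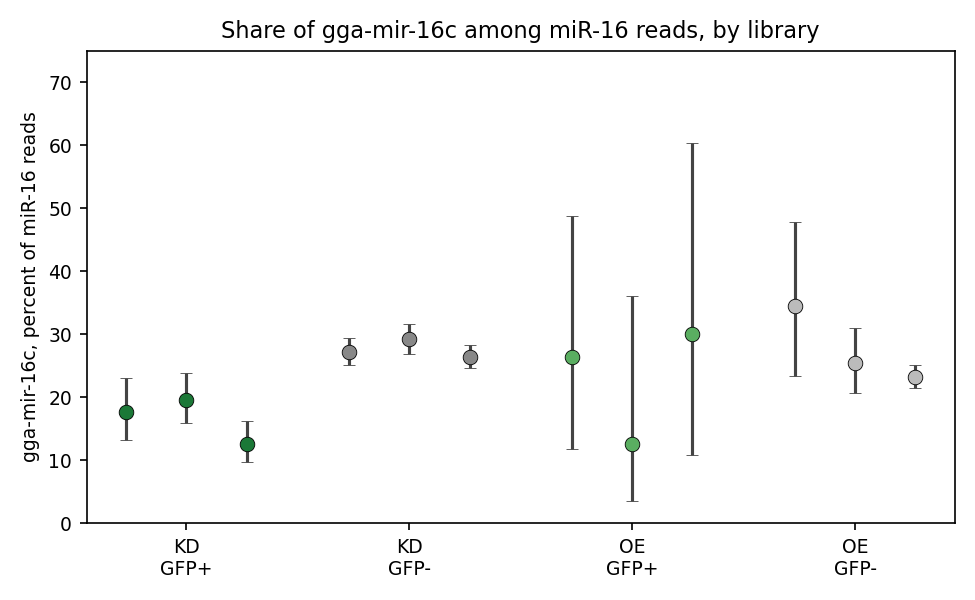
Percent of miR-16 hairpin reads that fell on gga-mir-16c (y axis) in each library, grouped as knockdown (KD) GFP+, knockdown GFP-, overexpression (OE) GFP+ and overexpression GFP-; bars are 95% Wilson intervals. The knockdown GFP+ libraries lie at 12.6% to 19.5% and the knockdown GFP- libraries at 26.4% to 29.2%, and the overexpression groups overlap.

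In the overexpression arm gga-mir-16c was again lower in each GFP+ library, on very few reads. It had 33.4, 48.7 and 47.6 normalized reads in overexpression GFP+ libraries, from 5, 2 and 3 reads, against 74.2, 57.3 and 64.0 normalized reads in overexpression GFP- libraries, from 19, 70 and 448 reads. The groups did not overlap, an order shared by 22% of the tested hairpins in this arm. Counting error reached across the gap: the exact 95% Poisson interval of the GFP+ libraries ran from 10.9 to 78.0, from 5.90 to 176 and from 9.81 to 139 normalized reads. The log2 fold was -0.59 (SE 0.37, adjusted p = 0.244 by limma), beside a median of -0.67 over all 132 hairpins. The share of gga-mir-16c among miR-16 reads was 26.3%, 12.5% and 30.0% in overexpression GFP+ libraries and 34.5%, 25.5% and 23.2% in overexpression GFP- libraries, and these overlapped (two-sided exact permutation test, p = 0.6).

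The other members of the overexpression arm gave no call either. In overexpression GFP+ libraries gga-mir-16-1 had 26.7, 146 and 47.6 normalized reads, from 4, 6 and 3 reads, against 78.1, 81.1 and 113 in overexpression GFP- libraries. The second GFP+ library lay above and the other two below all 3 GFP- libraries, and the log2 fold was -0.63 (SE 0.52, adjusted p = 0.386 by limma). Without that second library it was -1.30 with an adjusted p of 0.0176 by limma, in a fit that called 25.8% of the tested hairpins, so 1 library of 1292 hairpin reads decided whether this hairpin passed. For gga-mir-16-2 the levels were 66.8, 194.99 and 63.4 normalized reads in overexpression GFP+ libraries, against 62.5, 86.8 and 98.9 in overexpression GFP- libraries, a log2 fold of 0.21 (SE 0.44) that turned to -0.32 without the same library. In all, 0 of 4 members passed by limma, edgeR or DESeq2. Of all tested hairpins 18.9% passed by limma and 22% by edgeR and by DESeq2. At an unadjusted p under 0.05 were 0 of the 4 members by each tool. At that threshold were 51 of all 132 tested hairpins by limma, 42 by edgeR and 47 by DESeq2.

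**Figure D4:**
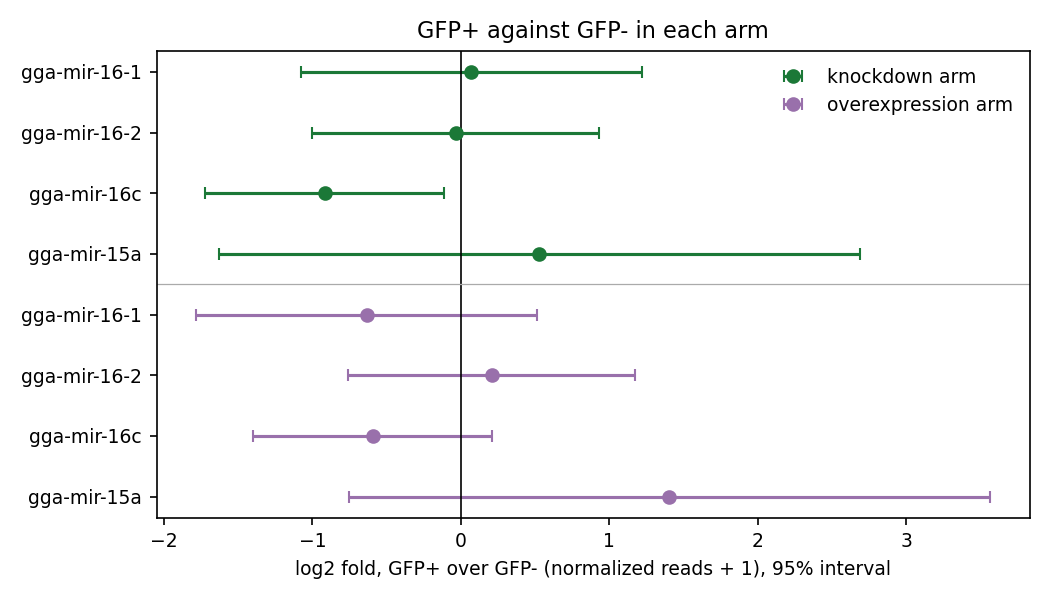
Log2 fold of GFP+ over GFP- (x axis, on normalized reads plus 1) for the 4 tested hairpins in the knockdown arm (green, above) and the overexpression arm (purple, below), with the 95% interval of limma's fit. For gga-mir-16c in the knockdown arm the interval, from -1.72 to -0.11, lies below 0, and each of the other 7 includes 0. This fit uses no replicate block. With the block the fold of gga-mir-16c in the knockdown arm has an SE of 0.50 and an unadjusted p of 0.0987 by limma.

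Both arms put gga-mir-16c below in GFP+ cells, and 13.6% of the tested hairpins, 18 of 132, had every GFP+ library below every GFP- library in both. The GFP effect averaged over the arms, a contrast chosen after those values were seen, was a log2 fold of -0.76 (SE 0.26, adjusted p = 0.0442 by limma), in a contrast that called 31.8% of the tested hairpins. It did not hold: with the replicate number as a block the adjusted p was 0.128, with TMM scaling 0.0829 and with total-count scaling 0.215. Leaving out 1 library at a time it passed in 3 of 12 fits, those without 1 of the overexpression GFP+ libraries, with log2 folds from -0.80 to -0.67 and adjusted p from 0.02001 to 0.116.

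The let-7 list and some marker lists of other cell types differed with the same sort. Over all 132 tested hairpins limma called 13 higher and 1 lower in the knockdown arm, and 12 higher and 13 lower in the overexpression arm. The summed level of 13 let-7 and miR-98 hairpins, 11 of them above 0, was 3276 to 4161 normalized reads in knockdown GFP+ libraries against 308 to 692 in knockdown GFP- libraries. In the other arm it was 1243 to 1855 in overexpression GFP+ libraries against 148 to 451.3 in overexpression GFP- libraries, and 8 of 10 tested were called higher by limma in each arm. Of 8 endoderm and liver hairpins, 5 were above 0 and the 3 named gga-mir-122b were not, and their sum was 2486 to 3272 normalized reads in knockdown GFP+ libraries against 132.9 to 496 in knockdown GFP- libraries. It was 975 to 1982 in overexpression GFP+ libraries against 66.4 to 134 in overexpression GFP- libraries, and limma called 3 of 3 tested higher in the knockdown arm and 2 of 3 in the overexpression arm. The 6 blood and endothelium hairpins, of which gga-mir-155 was at 0, summed to 56.9 to 93.6 in knockdown GFP+ libraries and 107 to 168 in knockdown GFP- libraries, and to 33.4 to 97.5 in overexpression GFP+ libraries and 315 to 471 in overexpression GFP- libraries; the 1 tested, gga-mir-126, was called lower in the overexpression arm and not in the knockdown arm. The 10 muscle and cardiac hairpins, all above 0, summed to 71.0 to 165 normalized reads in knockdown GFP+ libraries and 250 to 688 in knockdown GFP- libraries, and to 24.4 to 190 in overexpression GFP+ libraries and 266 to 1067 in overexpression GFP- libraries, and 0 of 3 tested were called in either arm. Neural hairpins, 15 of 18 above 0, overlapped in the knockdown arm, at 643 to 995 in GFP+ and 847 to 1018 in GFP- libraries; in the overexpression arm they were at 463 to 695 in GFP+ and 713 to 914 in GFP- libraries. Of 10 tested neural hairpins limma called 0 in the knockdown arm and 2 lower in the overexpression arm. The median log2 fold of the 10 was above 0 in both arms, at 0.16 in the knockdown arm and 0.22 in the overexpression arm. These lists do not name the cell types sorted. The part of the differences in these lists, and of depth, in the level of gga-mir-16c was not tested.

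The miR-15 hairpins were too thinly read to settle a difference. In knockdown GFP+ libraries gga-mir-15a had 19.1, 11.4 and 20.1 normalized reads, against 15.4, 11.2 and 7.79 in knockdown GFP- libraries, which overlapped (log2 fold 0.53, SE 0.98). In overexpression GFP+ libraries it had 1 read in each, or 6.68, 24.4 and 15.9 normalized reads, against 0, 17.2 and 8.72 in overexpression GFP- libraries (log2 fold 1.41, SE 0.98, adjusted p = 0.294 by limma). That fold was 0.16 without overexpression GFP- replicate 1, the library at 0, and 2.25 without GFP- replicate 2, and 0.36 by edgeR and 0.32 by DESeq2. The share of gga-mir-15a in its pair was 15.4% in GFP+ cells (12.5% to 18.7%) and 11.6% in GFP- cells (10.3% to 13.0%) of the knockdown arm, pooled over libraries, and the library shares, 12.5% to 18.5% and 9.09% to 14.6%, overlapped. In knockdown GFP+ libraries gga-mir-15b had 0, 9.99 and 7.81 normalized reads, against 5.83, 7.25 and 5.49 in knockdown GFP- libraries. It had 0 reads in the 3 overexpression GFP+ libraries, where 3 reads would be worth 20.1, 73.1 and 47.6 normalized reads, against 15.6, 11.5 and 5.00 normalized reads in overexpression GFP- libraries, so a difference was not detectable at this depth. The same held for gga-mir-15c, at 0 in the 3 overexpression GFP+ libraries and at 7.81, 4.91 and 2.57 normalized reads in overexpression GFP- libraries. In the knockdown arm gga-mir-15c, the neighbour of gga-mir-16c, had 2.60, 0 and 1.67 normalized reads in GFP+ libraries, from 3, 0 and 3 reads, against 1.99, 2.99 and 3.80 in GFP- libraries.

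No member was shown to respond differently to the sort in the 2 arms. The interaction, the overexpression GFP effect minus the knockdown GFP effect, called 0 of 4 members by limma, edgeR and DESeq2, with 0 at an unadjusted p under 0.05 and a smallest adjusted p of 0.818, by limma; over all 132 hairpins 0% were called by limma, with 9 at an unadjusted p under 0.05, and 0 by edgeR and DESeq2. For gga-mir-16c the interaction was 0.33 on the log2 scale (95% interval -0.81 to 1.46). Between the arms, overexpression GFP- cells against knockdown GFP- cells gave 0 of 4 members by each of the 3 tools. The log2 folds of limma ran from -1.10 for gga-mir-15a to 0.08 for gga-mir-16-1, and the smallest adjusted p was 0.989 by limma, 0.981 by edgeR and 0.941 by DESeq2. In that contrast limma called 0% of all hairpins with 10 at an unadjusted p under 0.05, edgeR called 0 and DESeq2 8. Overexpression GFP+ cells against knockdown GFP+ cells gave 0 of 4 by each tool, with a smallest adjusted p of 0.432 by limma, 0.639 by edgeR and 0.418 by DESeq2, where limma called 6.06% of the tested hairpins. Of the 132, edgeR called 0 and DESeq2 16 in this contrast. Here too leaving out the second overexpression GFP+ library let gga-mir-16-1 pass, at a log2 fold of -1.29 and an adjusted p of 0.0455 by limma, in a fit that called 9.09% of the tested hairpins.

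Summed over the 6 hairpins, the family stayed within a narrow range outside the shallow libraries. The sum was 218.3, 206.4 and 250.4 normalized reads in knockdown GFP+ libraries, against 269, 249 and 228 in knockdown GFP- libraries, with means of 225 ± 22.7 and 248 ± 20.2 (SD, n = 3 each). It was 134, 414 and 174 in overexpression GFP+ libraries, from 20, 17 and 11 reads, against 238, 259 and 292 in overexpression GFP- libraries, with means of 241 ± 152 and 263 ± 27.2. The groups overlapped in both arms. As a share of hairpin reads the family made up 0.511% to 0.558% in knockdown GFP+ libraries and 0.524% to 0.580% in knockdown GFP- libraries. In the other arm it was 0.519% to 1.32% in overexpression GFP+ libraries and 0.6002% to 0.808% in overexpression GFP- libraries. The log2 difference of the sums, GFP+ minus GFP-, was -0.14 in the knockdown arm but 0.02 after TMM scaling, and -0.30 in the overexpression arm but 0.08 after total-count scaling, so neither arm fixed a direction. For overexpression GFP- minus knockdown GFP- cells it was 0.08, and 0.35 after total-count scaling.

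In the human-aligned table hsa-mir-16-1 and hsa-mir-16-2 passed the filter, among 114 tested hairpins, and hsa-mir-15a and hsa-mir-15b did not; no human row bears the number of gga-mir-16c or gga-mir-15c, so the lower level of gga-mir-16c has no counterpart there. The summed level of hsa-mir-16-1 and hsa-mir-16-2 was 154.8 ± 15.4 in knockdown GFP+ libraries and 151 ± 15.9 in knockdown GFP- libraries, 267 ± 238 in overexpression GFP+ libraries and 171 ± 23.9 in overexpression GFP- libraries (SD, n = 3 each). The chicken pair of the same names summed to 168 ± 22.6 normalized reads in knockdown GFP+ and 165 ± 12.2 in knockdown GFP- libraries, and to 182 ± 138 in overexpression GFP+ and 173 ± 35.9 in overexpression GFP- libraries. By limma, edgeR and DESeq2, 0 of the 2 human rows passed in any of the 5 contrasts, with 0 at an unadjusted p under 0.05. At that unadjusted threshold limma had 25 of the 114 in the knockdown GFP contrast and 36 in the overexpression GFP contrast. It had 6 in the interaction and 25 between the GFP+ groups. Limma called 8.77% of the tested human-aligned hairpins in the knockdown GFP contrast, 18.4% in the overexpression GFP contrast, 2.63% in the interaction, 0% between the GFP- groups and 3.51% between the GFP+ groups. Of the 114, edgeR called 42 and DESeq2 46 in the knockdown GFP contrast, and 27 and 31 in the overexpression GFP contrast. Both called 0 in the interaction, and they called 0 and 3 between the GFP+ groups. For the 0% between the GFP- groups, 3 hairpins had an unadjusted p under 0.05, edgeR called 1 and DESeq2 called 3. The split of reads between the 2 copies differed between the tables: the 16-1 copy held 51.8% of them in the chicken-aligned table (50.6% to 53.0%) and 43.9% in the human-aligned table (42.6% to 45.1%).

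Relatives with the same or nearly the same seed could not be measured in the chicken-aligned table. No row there had the family number of miR-195, miR-322, miR-424, miR-457, miR-497 or miR-503, so no read could be assigned to them. The human-aligned table had 4 such rows, 3 of them above 0 and 0 of them tested, with a summed level of at most 9.99 normalized reads in knockdown GFP+ libraries, 0.273 in knockdown GFP- libraries and 0 in the overexpression libraries. Among the early-embryo miRNAs known to act on Nodal signalling, the chicken rows were the 4 miR-302 hairpins. In the overexpression arm limma called 1 of those 4 lower in GFP+ cells, where it called 9.85% of all tested hairpins lower, and their median log2 fold was -0.34 in the knockdown arm and -0.78 in the overexpression arm, against -0.17 and -0.67 over all tested hairpins.

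The members did not move as one across libraries. On the log2 scale Pearson's r between gga-mir-16-1 and gga-mir-16-2 was 0.68 over 12 libraries and 0.77 over the 9 without the overexpression GFP+ group; both may draw on the same reads. Between gga-mir-16-1 and gga-mir-16c it was 0.26 and -0.16, and between gga-mir-15a and gga-mir-16c -0.43 and -0.54. These values describe libraries that share depth and group, and carry no test. The tested hairpins outside the family that ran closest to its summed level over 12 libraries were gga-mir-148a (r = 0.81), gga-mir-202 (0.80), gga-mir-130a (0.73), gga-mir-10b (0.73) and gga-mir-30e (0.67), where the median of the others was -0.15. Over the 6 GFP- libraries they were gga-mir-455 (0.81), gga-mir-23b (0.80), gga-mir-153 (0.75), gga-mir-218-1 (0.72) and gga-mir-10a (0.72), with a median of 0.14. No name was in both lists. The family sum ran from 134 to 414 normalized reads in the overexpression GFP+ libraries, on 11 to 20 reads. Its SD was 152 there, against 20.2 to 27.2 in the other groups. The list over 12 libraries thus leans on the group with the largest counting error.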

How the data were processed

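Small RNA libraries came from sorted chicken embryo cells, prepared with a NEXTflex small RNA kit and gel size selection, per the labels' protocols. The submitters' processing notes name FastQC 0.11.5, cutadapt, STAR 2.7.0f and the build hg38. Neither labels nor headers state which chicken build, counting tool or normalization factor was used. Deposited by the authors were 2 tables of normalized signal, one aligned to chicken and one to human. Dividing each library by its smallest step gave whole reads for 100% of nonzero values (tolerance 0.001 reads). Rows of mature arms (1389 and 2883) were all at 0, so hairpin rows were used, the first where a name repeated (61 and 5 rows). The values log2(normalized reads + 1) of hairpins with a mean of at least 10 were fitted with limma 3.58.1 (R 4.3.3) over the 4 groups, with trend and Benjamini-Hochberg adjustment over all tested hairpins; the threshold was 0.05. Alternatives were edgeR 4.0.16 and DESeq2 1.42.0 on the recovered reads, other scalings, filters and pseudocounts, the replicate block and leaving out each library. The limma fit over the 4 groups and edgeR were also run on simulated reads with known folds, and DESeq2 and the other alternatives were not. Same-numbered GFP+ and GFP- libraries deviated together in the chicken-aligned table. Their correlations were 0.150, 0.379 and 0.144 in the knockdown arm and 0.207, 0.324 and 0.111 in the overexpression arm. Correlations of differently numbered libraries ran from -0.389 to 0.192, in part above these. In the human-aligned table, which holds the same libraries, correlations of same-numbered libraries ran from -0.139 to 0.360. The titles name each GFP- library the control of the GFP+ library with the same number. Whether both came from the same embryos is not settled by these correlations, and the labels do not say. Only the replicate block, run in both tables, and the permutation within pairs used the numbers as pairs. All hairpins with family number 15 or 16 are named, with seed relatives, miRNAs acting on Nodal signalling, and the 5 hairpins most like the family sum. The hairpins and lists were chosen with earlier results of these data known. Gene positions by neighbour come from RefSeq on GRCg7b, where all 6 matched by name.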

Additional observations from a re-analysis of the deposited data

How the results depend on the processing

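The folds of the 4 tested chicken hairpins in the 2 GFP contrasts were recomputed 154 times, and 141 kept their direction and their side of the threshold. The number of members called, 0 as reported, became 1 in the knockdown arm under DESeq2, with the compared groups only and with array weights. Those fits called 27.3%, 29.5% and 29.5% of the tested hairpins. A fit without both of the shallowest overexpression GFP+ libraries, chosen after seeing the data, gave gga-mir-16-1 a log2 fold of -1.71 in that arm. It leaves 1 overexpression GFP+ library, with 4 reads on gga-mir-16-1, whose spread is assumed to be that of the other groups. Leaving out 1 library gave 0 to 1 members in the overexpression arm and between the GFP+ groups, and 0 in the knockdown arm. With the replicate block the number stayed at 0 in the knockdown and overexpression arms and in the interaction, in both tables, and the block changed no call other than that of gga-mir-16c averaged over the arms (log2 fold -0.76).

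The sign reversed for gga-mir-16-2 in the knockdown arm, at 0.12 with TMM and 0.0425 with total-count scaling (-0.125 to 0.0542 leaving out 1 library, positive without GFP+ replicate 2 or GFP- replicate 1), and in the overexpression arm, at -0.31 with array weights and -0.28 without both shallowest libraries, where 1 GFP+ library with 10 reads on it is left (-0.316 to 0.487 leaving out 1 library, with the negative value without GFP+ replicate 2). For gga-mir-16-1 it reversed in the knockdown arm at -0.0446 without GFP+ replicate 3. The causes were not tested. The family's log2 difference in the knockdown arm moved to 0.0164 with TMM scaling and 0.0345 in the human-aligned table, and ran from -0.22 to -0.08 leaving out 1 library. Overexpression GFP- minus knockdown GFP- it moved to 0.35 with total-count scaling and 0.43 as a share without the most abundant hairpin (0.0028 to 0.15 leaving out 1 library), and overexpression GFP+ minus knockdown GFP+ to 0.61 as that share (-0.55 to 0.26, positive without overexpression GFP+ replicate 1 or 3 or knockdown GFP+ replicate 3). In the overexpression arm it ran from -0.78 to 0.04, positive without GFP+ replicate 1. The share of gga-mir-16c among miR-16 reads differed by -12.5 to -9.01 points in the knockdown arm and by -8.33 to 0.42 in the overexpression arm, positive without GFP+ replicate 2. A block could not be fitted between arms. Depth limits the overexpression GFP+ group most, at 11 to 20 family reads a library.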

Other observations

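The next miRNA gene along from MIR16C and MIR15C on chromosome 4 of GRCg7b is gga-mir-106. With it gga-mir-18b, gga-mir-20b, gga-mir-19b-2, gga-mir-92-2 and gga-mir-363 were taken as a cluster of 6, related to the miR-17-92 cluster of mammals. The positions of those listed after gga-mir-106 were not checked in the assembly. The gap from gga-mir-16c to gga-mir-106 is 76266 bases, against 296 bases to gga-mir-15c. These 6 genes were looked at after the level of gga-mir-16c was seen. Their log2 folds in knockdown GFP+ cells against knockdown GFP- cells were -0.65, -0.63, -0.81, -0.77, -0.14 and -0.98 in that order. Only gga-mir-363 passed (limma, adjusted p = 0.0424), where 10.6% of all tested hairpins did, and the others had an adjusted p of 0.397 to 0.932. In overexpression GFP+ cells against overexpression GFP- cells the log2 folds were -1.09, -1.11, -2.61, -0.23, -0.28 and -1.39. Medians over all tested hairpins were -0.17 in the knockdown arm and -0.67 in the overexpression arm. Again only gga-mir-363 passed (limma, adjusted p = 0.00352), where 18.9% of all tested hairpins did, and the others had an adjusted p of 0.0555 to 0.731. Both gga-mir-18b and gga-mir-20b had a lowest level of 0 in overexpression GFP+ libraries. The mean of gga-mir-18b was 37.4 normalized reads there and 31.3 in overexpression GFP- libraries, opposite to the sign of its fold. The mean level of gga-mir-363 was 295 ± 53.9 in knockdown GFP+ libraries and 578 ± 61.3 in knockdown GFP- libraries (SD, n = 3 each). It was 227 ± 56.9 in overexpression GFP+ libraries and 592 ± 120 in overexpression GFP- libraries. Whether gga-mir-16c and this cluster are transcribed together was not tested.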
